A study of Arabidopsis thaliana with 12 samples.

Results

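Control seedlings of Arabidopsis thaliana that had not met fungal volatiles were sampled at 24 h and at 48 h, and the level of each gene at 48 h was set against its level at 24 h. Of 26007 genes with a row of their own in any of the 3 deposited tables, 24674 had one in both the 24 h and the 48 h table. The 16432 genes whose mean over the 24 h and 48 h controls was at least 1 FPKM, the deposited fragment count scaled by transcript length and library size, are described here, and 16391 of them were above 0 at both times.

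The series holds 12 libraries of whole seedlings in 6 groups of 2, made to learn what the plant does when it shares its air with Tolypocladium inflatum GT22, a fungus that gives off volatiles. The groups used are control seedlings at 24 h and 48 h, and seedlings exposed to the volatiles for the same times; the 3 h controls, from a table scaled on its own, are quoted beside them. The ecotype, seedling age, growth medium, light regime and hour of harvest are not given in the sources used here, nor whether libraries came from separate cultures. Each group has 1 deposited value per gene, so the spread between its 2 libraries cannot be seen and no SD is given, and the depth of sequencing is unknown. In whole seedlings, fewer cells of a type and less RNA per cell cannot be told apart.

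Plants hold spare iron in ferritin, a protein shell in the plastid, and in the vacuole, where VTL carriers are thought to load it. When iron runs short, transcription factors of the bHLH family raise uptake and transport genes, and ferritin genes are switched off. The circadian clock is a loop of repressors that peak in turn, from CCA1 at dawn through the PRR proteins in the day to TOC1, LUX and ELF4 in the evening, and many genes of starch breakdown follow it. A sequence called the evening element is found upstream of many genes that peak late in the day, and the G-box is a core site of bHLH and bZIP factors.

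The 200 bases upstream of the RefSeq start of 8 genes that the results below turn on are printed 5′ to 3′, from RefSeq TAIR10.1. The deposited models do not all start there: the PRR5 model runs to base 8358873 of chromosome 5, so that its whole window and evening element lie inside the model measured. FER1 and FER3 are the ferritins that were lower at 48 h, BHLH100 is an iron-deficiency regulator that was higher, CCA1 is the dawn clock gene that was lower, and FKF1, PRR5, RbcX1 and PWD are genes with an evening element that were higher. Capitals mark exact matches, on either strand, to the evening element AAAATATCT or to the G-box CACGTG; no match overlaps another in these windows.
FER1, chr5:230052-230251, minus strand: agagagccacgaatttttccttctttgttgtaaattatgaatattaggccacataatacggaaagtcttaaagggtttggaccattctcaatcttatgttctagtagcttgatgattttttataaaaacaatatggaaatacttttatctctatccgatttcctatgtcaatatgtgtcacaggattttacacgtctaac
FER3, chr3:20816036-20816235, minus strand: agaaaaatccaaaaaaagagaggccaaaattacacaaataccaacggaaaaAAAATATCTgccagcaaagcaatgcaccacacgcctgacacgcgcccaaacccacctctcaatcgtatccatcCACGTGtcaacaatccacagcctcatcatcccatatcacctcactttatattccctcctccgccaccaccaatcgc
BHLH100, chr2:17199455-17199654, minus strand: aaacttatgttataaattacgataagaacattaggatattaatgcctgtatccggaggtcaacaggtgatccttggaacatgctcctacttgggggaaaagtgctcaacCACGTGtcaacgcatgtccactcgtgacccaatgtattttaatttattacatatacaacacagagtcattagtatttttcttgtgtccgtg
CCA1, chr2:19245391-19245590, plus strand: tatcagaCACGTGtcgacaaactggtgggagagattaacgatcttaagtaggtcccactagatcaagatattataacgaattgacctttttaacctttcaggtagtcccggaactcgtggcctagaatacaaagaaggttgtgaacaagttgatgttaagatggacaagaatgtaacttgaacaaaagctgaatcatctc
FKF1, chr1:25508439-25508638, plus strand: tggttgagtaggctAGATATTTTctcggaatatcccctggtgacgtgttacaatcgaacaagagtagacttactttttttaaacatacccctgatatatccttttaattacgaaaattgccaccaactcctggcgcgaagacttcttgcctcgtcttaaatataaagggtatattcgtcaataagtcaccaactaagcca
PRR5, chr5:8358547-8358746, minus strand: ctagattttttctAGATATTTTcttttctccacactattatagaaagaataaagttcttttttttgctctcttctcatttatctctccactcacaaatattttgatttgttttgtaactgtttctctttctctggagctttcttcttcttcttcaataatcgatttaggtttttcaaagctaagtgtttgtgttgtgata
RbcX1, chr4:2118618-2118817, minus strand: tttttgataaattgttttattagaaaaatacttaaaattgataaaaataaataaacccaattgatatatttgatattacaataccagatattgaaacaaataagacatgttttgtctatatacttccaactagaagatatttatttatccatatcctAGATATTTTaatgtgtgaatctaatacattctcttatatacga
PWD, chr5:9261279-9261478, plus strand: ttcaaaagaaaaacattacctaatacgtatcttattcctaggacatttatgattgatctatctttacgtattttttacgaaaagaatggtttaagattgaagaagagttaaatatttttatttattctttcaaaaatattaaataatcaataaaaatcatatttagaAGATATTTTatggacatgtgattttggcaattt

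The scaling between the tables was judged first, because they were built separately. Over the 16391 genes the median log2 ratio of 48 h to 24 h was 0.04 in controls and 0.05 in volatile-exposed seedlings, and it was set to 0 in each. Every log2 ratio below is on this centred scale, without a pseudocount, and is positive where the 48 h value is higher. Most genes differed little: 91.4% of control ratios lay within 0.5 of 0, and the 5th and 95th percentiles were -0.45 and 0.49. The ratio leaned on level. Before centring, the control median was 0.09 for genes at 1 to 4 FPKM, 0.02 at 16 to 64 FPKM and -0.19 for the 550 genes at 256 FPKM or more, where the exposed seedlings gave -0.01. A fall of about 0.2 in a very abundant gene is therefore the common level of its class in controls.

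**Figure D1:**
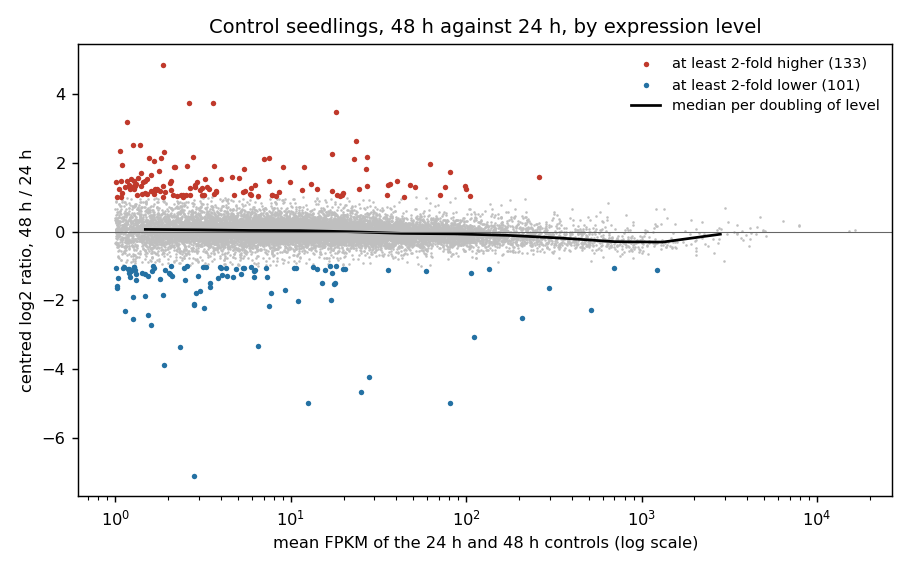
Each point is 1 gene, with the mean FPKM of the 24 h and 48 h controls on a log axis and the centred log2 ratio of 48 h to 24 h on the vertical axis; the black line is the median in each doubling of level. The 133 genes at least 2-fold higher and the 101 at least 2-fold lower are mostly of low level, and the black line slopes down for abundant genes.

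Past 2-fold, 133 of the 16391 genes were higher in controls at 48 h (0.811%) and 101 were lower (0.616%). In the volatile-exposed seedlings the same cut held 136 higher genes (0.831% of 16372) and 85 lower ones (0.519%). The exposed libraries are separate from the control libraries, although they share each table and its gene models. Of the 126 higher genes that could be compared, 99 lay above 0 in exposed seedlings as well and 46 were at least 2-fold higher there. Of 95 lower genes, 64 lay below 0 and 27 were at least 2-fold lower. These shares of 78.6% and 67.4% stand beside 64.5% of all 16372 genes whose control and exposed ratios lay on the same side, and the share of the lower genes is close to that background. With a mean of at least 5 FPKM the shares were 92.2% and 89.5%, beside 66.4% of all such genes. For the lower genes the share was 64.0% with no centring, beside 65.2% of all genes, and 59.7% with gene models of the same bounds, beside 64.4%. Across 16372 genes, which are not independent replicates and share their tables, the control and exposed ratios had a Pearson correlation of 0.44 and a Spearman correlation of 0.40, as a description.

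A day difference common to both arms was tested with limma on log2(FPKM + 0.5), with treatment and time as terms and the 4 group values of 24 h and 48 h as data. A gene "rose" or "fell" below where its Benjamini-Hochberg adjusted p in this fit was under 0.05. By that measure 79 of 16432 genes rose (0.481%) and 67 fell (0.408%). With 1 residual degree of freedom, the p-values lean on the spread shared by all genes, and that degree is the difference between the control and the exposed arm in their change from 24 h to 48 h, not a spread between libraries. Time, table, gene model and harvest cannot be told apart. Without a trend in the prior, 22 genes passed; of those described below as risen or fallen, they include FER1, BHLH100, GLR1.3, SIP1;2, AT2G14247, AT2G22880, AT1G05136, AT1G07901, CCP2, AT5G23411, AT5G66053 and ATMG01370, and the others described so had adjusted p-values of 0.052 (CLE42) to 0.14. With the 3 h groups added, the calls of VTL1 (0.11), VTL2 (0.061), RVE8 (0.072), ZAT10 (0.090), PR4 (0.072), TGG2 (0.053), ELIP2 (0.0504), BBX31 (0.0501), AT5G65609 (0.21) and AT5G23411 (0.47) were lost. With gene models of the same bounds, a setting chosen after seeing the data, RVE8, AT1G47400, ZAT10, DRM1, PR4, PWD, NEET and ERF104 were lost, at 0.052 (PWD) to 0.059 (DRM1). CCP2, AT1G07901, ATMG01370, AT5G65609 and BBX31 have bounds that differ and could not be tested in that setting, so it says nothing on their calls. NEET, AT1G47400 and ERF104 were also lost with quantile normalization, at 0.062, 0.053 and 0.052, and NEET with no centring, at 0.055. A second reading, for controls alone, took errors from the deposited statistics of volatile against control. Their combined median was 0.42 on the log2 scale, and 1 of 16357 genes passed a normal test with Benjamini-Hochberg adjustment (0.00611%), with 108 genes (0.66%) at an unadjusted p under 0.05. That error covers the exposed groups too, but holds no spread between the 24 h and 48 h tables. It can be too large or too small for the control difference. Few passing genes therefore do not show that controls were alike at 24 h and 48 h.

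Iron storage genes had the lowest control median of the lists with at least 5 measured members. FER1 (AT5G01600, TAIR10 chromosome 5, 227953 to 230051), a plastid ferritin, was measured at 443.2 FPKM in controls of 24 h and 146.7 FPKM in controls of 48 h, and at 463.4 and 142.8 FPKM in the exposed seedlings. It was high in both groups of 24 h and low in both of 48 h, with 108.0 FPKM in the 3 h controls. The control log2 ratio was -1.63 with an implied error of 0.39, the exposed ratio -1.75, and FER1 fell (limma adjusted p = 0.0057). FER3 (AT3G56090, chromosome 3, 20814047 to 20816035), a second ferritin, stood at 182.1 and 88.1 FPKM in controls and at 206.4 and 106.2 FPKM in exposed seedlings, and fell with a control log2 ratio of -1.08 (limma adjusted p = 0.016). VTL1, a member of the vacuolar iron transporter family, had 10.4 FPKM at 24 h and 4.27 FPKM at 48 h in controls, and 11.6 and 5.92 FPKM in exposed seedlings. Its relative VTL2 had 9.99 and 5.23 FPKM in controls and 11.4 and 6.72 FPKM in exposed seedlings. Both fell (limma adjusted p = 0.025 and 0.028), calls lost with the 3 h groups added (0.11 and 0.061). No 48 h group reached a 24 h group for any of these 4 genes.

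The other measured members of the iron storage list were VTL5, of the same transporter family, at 114.8 and 80.1 FPKM in the controls, and NAS3, a nicotianamine synthase, at 34.6 and 33.5 FPKM. Neither passed limma (adjusted p = 0.13 and 0.27). In all, 6 of 6 measured members were below 0 with a control median of -1.03 and an exposed median of -0.92, and 4 of 6 fell, beside 0.408% of all genes tested. FER2, FER4 and YSL1 stood in rows that merge several genes and are not counted. NEET (AT5G51720), a protein that binds an iron-sulfur cluster, also fell, from 236.0 to 160.6 FPKM in controls and from 270.4 to 160.7 FPKM in exposed seedlings.

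The iron-deficiency list was mixed. BHLH100, a bHLH factor induced by iron shortage, was at 0.23 FPKM in controls and exposed seedlings at 24 h and at 2.11 and 3.05 FPKM at 48 h, and rose (limma adjusted p = 0.032). Its relative BHLH39 had 4.80 and 8.77 FPKM in controls and 4.18 and 11.1 FPKM in exposed seedlings. BHLH101, of the same subgroup, had 0.62 and 3.17 FPKM in controls and 0.60 and 1.29 FPKM in exposed seedlings, and also met the cut through its 48 h control value. BHLH39 and BHLH101 were higher in both 48 h groups, but neither passed limma (adjusted p = 0.051 and 0.16). PYE, a bHLH regulator of iron homeostasis, stood at 8.80 and 13.4 FPKM, BTS, a ubiquitin ligase that restrains the response, at 17.2 and 27.5 FPKM, and OPT3, a transporter that moves iron in the phloem, at 67.5 and 101.3 FPKM. All 3 were higher at 48 h in exposed seedlings too, with limma adjusted p-values of 0.057, 0.058 and 0.058, just past the threshold.

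The members of the same list that were lower in controls at 48 h include IRT1, FRO2 and FIT, which act in root uptake. IRT1, the root iron transporter, stood at 31.1 FPKM at 24 h and 21.5 FPKM at 48 h in controls but at 29.0 and 40.4 FPKM in exposed seedlings. FRO2, the ferric reductase that works with it, was at 6.44 and 5.89 FPKM in controls and at 4.83 and 9.50 FPKM in exposed seedlings. The control ratios of -0.57 and -0.17 and the exposed ratios of 0.43 and 0.92 lie on opposite sides of 0, and whether they differ was not tested. FIT, the bHLH factor that drives IRT1, had a control ratio of -0.28, NAS2, a nicotianamine synthase, -0.73, F6'H1, an enzyme of coumarin synthesis, -0.40, and CYP82C4, a cytochrome P450 of the iron response, -2.11 from 4.52 to 1.07 FPKM. Over the list, 14 of 20 measured members were above 0 and 6 below, with a control median of 0.28 and an exposed median of 0.35. With a mean of at least 5 FPKM the control median of the list was 0.09. Of the 20, 1 rose and 0 fell by limma, beside 0.481% and 0.408% of all genes tested.

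Several of the genes with large rises have no name in the reference annotation. AT2G30766 stood at 25.05 and 99.6 FPKM in controls and at 10.5 and 63.96 FPKM in exposed seedlings, AT1G47400 at 5.79 and 28.6 FPKM and at 6.49 and 16.4 FPKM, and AT1G47395 at 22.4 and 48.1 FPKM and at 14.4 and 42.9 FPKM, in each case 24 h first. All 3 rose (limma adjusted p = 0.013, 0.044 and 0.026) and were higher in both 48 h groups than in both 24 h groups. The deposited models of AT2G30766 span at least 6242 bases where RefSeq gives 2898. ORG1 (AT5G53450), annotated as an OBP3-responsive protein, rose from 20.9 to 59.6 FPKM in controls, with 18.23 and 38.3 FPKM in exposed seedlings.

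**Figure D2:**
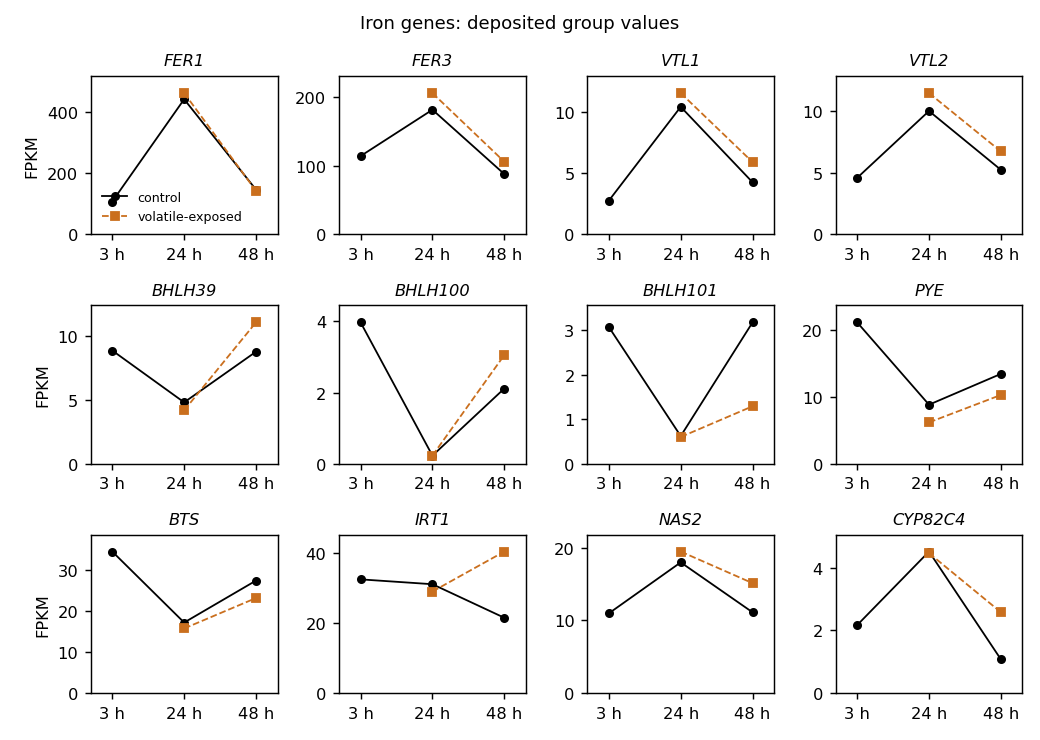
FPKM of 12 iron genes in the controls at 3, 24 and 48 h (black circles) and in volatile-exposed seedlings at 24 and 48 h (orange squares), 1 deposited value per group and no error bar; tables were scaled separately. FER1, FER3, VTL1 and VTL2 drop from 24 h to 48 h in both arms, BHLH39, BHLH100, BHLH101, PYE and BTS climb in both, NAS2 and CYP82C4 drop in both, and IRT1 drops in controls and climbs in exposed seedlings.

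Clock genes lay on both sides of 0. CCA1 (AT2G46830, chromosome 2, 19245672 to 19248914), a dawn repressor, was at 17.9 and 8.92 FPKM in controls and at 15.5 and 7.23 FPKM in exposed seedlings, and RVE8, a related morning activator, at 9.36 and 5.67 FPKM and at 8.22 and 3.84 FPKM. Both fell (limma adjusted p = 0.016 and 0.045), and both had been far lower in the 3 h controls, at 1.04 and 1.27 FPKM. PRR9, the earliest of the PRR repressors, RVE1 and CDF1, further morning genes, had control ratios of -0.47, -0.40 and -0.33 and did not pass limma.

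Other clock genes stood higher at 48 h. FKF1 (AT1G68050, chromosome 1, 25508676 to 25510889), a blue-light receptor of the afternoon, went from 5.03 to 10.7 FPKM in controls and from 4.29 to 9.69 FPKM in exposed seedlings, and PRR5, an afternoon repressor, from 17.7 to 34.1 FPKM and from 17.7 to 29.6 FPKM. Both rose (limma adjusted p = 0.023 and 0.032), and their 3 h controls were higher still, at 40.4 and 48.8 FPKM. TOC1, LUX and ELF4, evening repressors, had control ratios of 0.55, 0.68 and 0.47 and exposed ratios of 0.30, 0.54 and 0.58, with limma adjusted p-values of 0.14, 0.051 and 0.068. GRP7, an RNA-binding protein under clock control, stood at 1028 and 1657 FPKM in controls, a ratio of 0.65, while its close relative GRP8 stood at 1003 and 867.9 FPKM, a ratio of -0.25, against 0.17 in exposed seedlings. PRR7, which peaks between PRR9 and PRR5, was close to level at 51.0 and 58.8 FPKM. Over the list, 10 of 18 measured members were above 0 and 8 below. In exposed seedlings 16 of 18 lay on the same side, beside 64.5% of all genes. By limma 2 of the 18 rose and 2 fell, beside 0.481% and 0.408% of all genes tested. LHY, GI, RVE4 and ZTL stood in rows that merge several genes.

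Several starch breakdown genes were higher at 48 h. GWD1, a kinase that puts phosphate on starch so that it can be degraded, had 44.3 and 80.7 FPKM in controls and 51.2 and 84.01 FPKM in exposed seedlings. PWD, a second such kinase, had 23.8 and 38.1 FPKM in controls and 24.8 and 39.5 FPKM in exposed seedlings. Both 48 h groups lay above both 24 h groups, and the genes rose (limma adjusted p = 0.032 and 0.038). ISA3, a debranching enzyme, DPE1, a plastid glucanotransferase, and PHS1, a plastid phosphorylase, had control ratios of 0.78, 0.72 and 0.41 and did not pass, and GBSS1, the granule-bound starch synthase, stood at 36.1 and 25.4 FPKM. BAM1 and BAM3, beta-amylases of starch breakdown, had control ratios of -0.23 and -0.34. Of 18 measured starch genes 10 were above 0, with a control median of 0.11. In the sugar starvation list, 16 of 18 measured members were above 0 with a control median of 0.21. The 1 member past 2-fold, DIN9, was lower, at -1.003. DRM1, a dormancy-associated gene, rose from 68.9 to 104.9 FPKM. DRM2, its relative, stood at 80.6 and 129.5 FPKM in controls, and its 3 h value was 774.6 FPKM.

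RbcX1 (AT4G04330), a chaperone of Rubisco assembly, rose from 29.3 to 73.3 FPKM in controls and from 33.6 to 70.6 FPKM in exposed seedlings, and CCL (AT3G26740), a CCR-like protein, from 457.6 to 828.4 FPKM and from 323.4 to 643.1 FPKM. In the windows printed above, the evening element begins at base -186 of FKF1, -187 of PRR5, -43 of RbcX1 and -33 of PWD, on the minus strand, and at base -149 of FER3, which fell, on the plus strand. The G-box begins at base -76 of FER3, -91 of BHLH100 and -193 of CCA1. Within 200 bases upstream, the evening element was found in 11 of 78 genes that rose (14.1%) and in 2 of 65 that fell (3.08%), beside 2.14% of all 16350 measured genes with a window and 1.92% of all 27443 protein-coding genes. Among genes at least 2-fold higher in controls, by contrast, 7 of 131 held it (5.34%). The G-box stood in 8.97% of the genes that rose, 9.23% of those that fell and 6.45% of measured genes. These shares are descriptions, with no test, and the motifs were chosen with the results known.

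**Figure D3:**
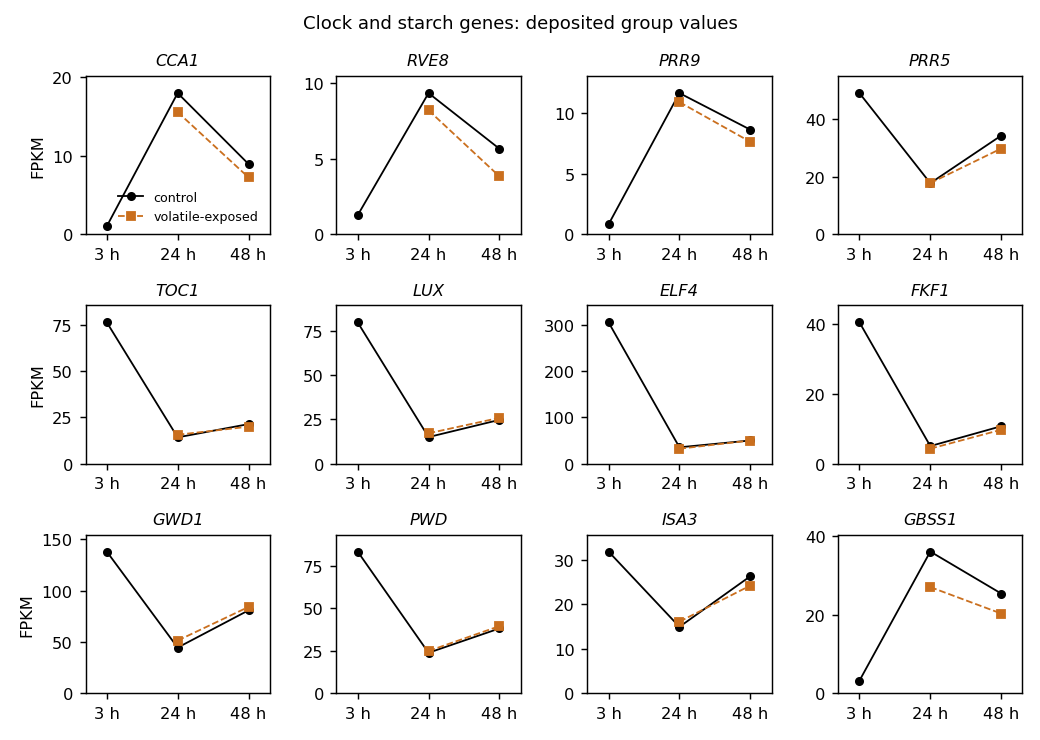
FPKM of 8 clock and 4 starch genes in controls at 3, 24 and 48 h (black circles) and in volatile-exposed seedlings at 24 and 48 h (orange squares), 1 deposited value per group and no error bar; tables were scaled separately. CCA1, RVE8, PRR9 and GBSS1 are lower at 48 h than at 24 h in both arms, and the other 8 genes are higher.

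Among the 12 genes of at least 5 FPKM with the highest control ratios, 9 had gene models under 500 bases, beside 1.02% of all genes compared. By limma 5 of the 12 rose, beside 0.481% of all genes tested. The control values that chose these 12 are also data in that fit, so the choice favours its calls. AT2G22880, annotated as a VQ motif protein, went from 2.73 to 12.3 FPKM in controls and from 3.28 to 13.3 FPKM in exposed seedlings. CLE42, a signalling peptide of the CLAVATA3 family, had 2.61 and 11.5 FPKM in controls and 1.72 and 11.9 FPKM in exposed seedlings. AT2G14247 had 9.70 and 44.8 FPKM in controls and 8.66 and 30.4 FPKM in exposed seedlings. These 3 genes rose (limma adjusted p = 0.0051, 0.014 and 0.010). AT1G13609, a defensin-like gene, had the highest ratio, 3.47, from 2.93 to 33.3 FPKM, against 1.82 in exposed seedlings, with a limma adjusted p of 0.0503 that missed the threshold. AT4G16240, AT4G26055 and AT4G36791 were listed at 0 in at least 1 exposed group, and AT5G19800 and AT3G01940 lay on the opposite side there. SIP1;2, an aquaporin-like gene, was among the smallest p-values, at 5.24 and 14.6 FPKM in controls and 4.70 and 14.97 FPKM in exposed seedlings (limma adjusted p = 0.012). AT5G66053 had a listed 0 in both 24 h groups, 73.2 FPKM in controls of 48 h and 122.3 FPKM in exposed seedlings of 48 h. ATMG01370, a mitochondrial locus whose bounds differ, had 14.3 FPKM and a listed 0 in controls and 19.1 and 0.29 FPKM in exposed seedlings.

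Among the 12 lowest, 5 had gene models whose bounds differed by more than 100 bases between the tables, against 10.4% of all genes compared. CCP2 went from 157.7 to 5.05 FPKM in controls and from 113.0 to 6.44 FPKM in exposed seedlings. AT1G07901 went from 48.2 to 1.96 FPKM in controls and from 33.6 to 1.80 FPKM in exposed seedlings. Both belong to these 5, with AT5G65609, AT1G53690 and AT1G32120. AT1G07901 alone passed the test with implied errors, and its deposited models span at least 1476 bases where RefSeq gives 153. The part of the differing bounds in these ratios was not tested. AT1G05136 had 353.1 and 63.2 FPKM in controls and 339.3 and 67.5 FPKM in exposed seedlings. AT5G23411 had 850.5 and 180.1 FPKM in controls and 243.8 and 58.3 FPKM in exposed seedlings. Both fell (limma adjusted p = 0.0014 and 0.0023), and their models span 1594 and 1259 bases in the tables where RefSeq gives 141 and 147 bases. GLR1.3, a glutamate receptor-like channel, fell from 12.2 to 2.80 FPKM in controls and from 14.4 to 2.60 FPKM in exposed seedlings. AT2G44800, a 2-oxoglutarate oxygenase family gene, stood at 24.2 FPKM in controls of 24 h and at 0.78 FPKM in controls of 48 h, and at 1.14 and 0.54 FPKM in exposed seedlings. The high value of 1 group sets its control ratio of -5.00, and it did not pass (limma adjusted p = 0.21). AT5G04790, AT2G22820 and RL1, with models under 500 bases, did not pass either, and AT2G22820 was listed at 0 in both exposed groups.

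Among genes of light and oxidative stress, CAT2, CSD2 and ELIP2 fell. CAT2 (AT4G35090), the main leaf catalase, went from 420.2 to 254.6 FPKM in controls and from 332.3 to 202.7 FPKM in exposed seedlings. CSD2, the plastid copper and zinc superoxide dismutase, stood at 99.6 and 58.2 FPKM in controls and at 79.7 and 46.6 FPKM in exposed seedlings. ELIP2, an early light-induced protein, stood at 80.1 and 37.2 FPKM in controls and at 59.8 and 36.0 FPKM in exposed seedlings. Their limma adjusted p-values were 0.032, 0.024 and 0.033, and each was lower in both 48 h groups than in both 24 h groups. ELIP1 and BBX24, a B-box regulator of light responses, had control ratios of -0.48 and -0.56 and APX1, a cytosolic ascorbate peroxidase, -0.50, and none of them passed. BBX31, a further B-box gene, fell from 4.44 to 1.33 FPKM, with model bounds that differ between the tables. The light signalling list that holds the ELIP and BBX genes had 14 of 23 measured members above 0 in controls, with a median of 0.03. RUP1, a repressor of ultraviolet-B signalling, was among these, at 0.50. In exposed seedlings 8 members of that list were above 0 and 15 below, with a median of -0.13. In the oxidative stress and detoxification list 16 of 18 measured members were below 0 in controls, with a median of -0.22, but 7 of 18 in exposed seedlings, where 11 were above 0. AT2G21640, annotated as a marker of oxidative stress, had a control ratio of 0.70 and an exposed ratio of -0.01. AKR4C9, an aldo-keto reductase, had 5.73 and 2.84 FPKM in controls and 1.91 and 2.65 FPKM in exposed seedlings. CYP81D8, a cytochrome P450, had 4.38 and 2.18 FPKM in controls and 1.96 and 2.57 FPKM in exposed seedlings. For both, the controls of 24 h were the highest of the 4 groups.

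Photosynthesis genes were close to level. RBCS1A, a small subunit of Rubisco, stood at 16091 and 17014 FPKM in controls, and LHCB1.1, a light-harvesting protein, at 5272 and 4954 FPKM. The 24 measured light harvesting and photosystem genes had a median of 0.01, with 13 above 0. Carbon fixation genes had a median of -0.26 in controls and -0.19 in exposed seedlings, with 7 of 11 below 0, but with quantile normalization the control median was -0.01. RBCS1B, RCA, the Rubisco activase, and FBA2, a plastid aldolase, had control ratios of -0.62, -0.41 and -0.41. In chlorophyll synthesis 9 of 10 members were below 0, with HEMA1, the first committed enzyme, at 202.4 and 139.3 FPKM, and PORB, a light-dependent reductase, was the exception at 455.0 and 699.3 FPKM; with quantile normalization 7 of 10 were below 0. None of the members of these 3 lists passed limma. Most of them are abundant, and the controls' median of -0.19 before centring at 256 FPKM or more stands beside their ratios.

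Several cold and dehydration genes were higher at 48 h in controls. COR15B, a plastid protein of cold tolerance, had 2.32 and 8.49 FPKM in controls and 3.59 and 6.77 FPKM in exposed seedlings. Its relative COR15A had 2.27 and 7.01 FPKM in controls and 3.56 and 3.82 FPKM in exposed seedlings. Neither passed (limma adjusted p = 0.082 and 0.32). In the abscisic acid and dehydration list 17 of 22 measured members were above 0, with a median of 0.14, and 0 passed. P5CS1, an enzyme of proline synthesis, LTI30, a dehydrin, and ABI1, a phosphatase of the abscisic acid receptor pathway, had control ratios of 0.47, 0.39 and 0.31. ERF104 and ERF105, ethylene response factors, had 12.4 and 7.67 FPKM at 24 h and 27.6 and 15.697 FPKM at 48 h in controls, and ZAT10, a zinc-finger repressor of stress genes, 22.7 and 34.6 FPKM. These 3 rose (limma adjusted p = 0.044, 0.023 and 0.047), in a fit that takes in the exposed groups as well. They make up the members of the cold and touch list that rose, beside 0.481% of all genes tested, with 12 of 17 above 0. COR413IM1 (AT1G29395), a cold-regulated plastid membrane protein, rose from 14.3 to 34.5 FPKM in controls and from 12.8 to 28.7 FPKM in exposed seedlings.

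Of 7 measured small heat shock genes, 5 were below 0 in controls, 3 of them past 2-fold, and 4 were below 0 in exposed seedlings. HSP17.6A went from 5.57 to 0.041 FPKM and HSP17.6II from 3.54 to 0.25 FPKM in controls, whereas exposed seedlings were low at both times, at 0.60 and 0.11 FPKM and at 0.43 and 0.38 FPKM. AT1G07400, of the same family, was at 5.27 and 1.15 FPKM in controls and at 1.47 and 2.96 FPKM in exposed seedlings. The high value of all 3 is that of the 24 h controls. The list holds 13 loci, and a measured member needs a control mean of at least 1 FPKM. HSP17.6A and HSP17.6II met that cut through their 24 h value alone. Their lower control value at 48 h is thus tied to the filter and is no separate support. The 7 measured members had a control median of -0.87 and an exposed median of -0.10, and 0 passed limma. HSP18.2, AT2G29500 and AT5G51440, the members of at least 5 FPKM, had control ratios of -0.22, 0.12 and -0.87. Large chaperones and heat factors had 15 of 17 members below 0 in controls and 7 of 17 in exposed seedlings, with HSP70 (AT3G12580) at 21.3 and 10.1 FPKM in controls and 14.7 and 12.6 FPKM in exposed seedlings.

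Jasmonate genes had a lower median in controls than in exposed seedlings, a difference that was not tested. LOX2, a lipoxygenase of jasmonate synthesis, stood at 16.6 and 27.6 FPKM in controls and at 18.8 and 90.4 FPKM in exposed seedlings. The 20 measured members had a control median of 0.11, with 13 above 0, and an exposed median of 0.99, with 20 of 20 above 0, and the exposed value rests on the volatile treatment as well as the day. WRKY70, a regulator of salicylic acid defence, PR4, a pathogenesis-related protein, and TGG2, a myrosinase that cleaves glucosinolates, rose, from 3.99 to 7.69 FPKM, from 144.2 to 233.2 FPKM and from 50.4 to 88.2 FPKM in controls (limma adjusted p = 0.035, 0.044 and 0.029). The fit behind these p-values takes in the exposed groups too and does not test the control change alone. The salicylic acid and systemic resistance list leaned the other way in controls, with 4 of 13 measured members above 0 and 9 below. Its control median was -0.01, and 1 of the 13 rose, beside 0.481% of all genes tested. In exposed seedlings 12 of 13 were above 0, with a median of 0.37. In the auxin response list 20 of 24 members were below 0, with IAA19, a repressor of auxin signalling, at 10.9 and 5.64 FPKM in controls and 8.78 and 6.89 FPKM in exposed seedlings, and 0 passed. PCO1, a plant cysteine oxidase, stood at 2.79 and 3.38 FPKM in controls, SUC2, the phloem sucrose carrier, at 92.9 and 85.0 FPKM, and SOC1, a floral integrator, at 10.9 and 13.6 FPKM, and FT was under 1 FPKM.

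Lists of root tissue, shoot tissue, and phloem and companion cell markers had control medians near 0, and root hair genes had a higher one, 0.18. The summed level of 17 root hair genes was 313.3 FPKM at 24 h and 357.6 FPKM at 48 h in controls, of 17 root tissue markers 2594 and 2642 FPKM, of 23 shoot tissue markers 35201 and 35535 FPKM, and of 11 phloem and companion cell genes 463.6 and 490.6 FPKM. Every marker summed has a control ratio, which needs a value above 0 at both times. A listed 0 in controls was thus excluded beforehand, and its absence says nothing on tissue content. Root and shoot markers were both present at the summed levels given. The control medians were 0.18, -0.03, -0.08 and 0.05 in the same order. Root hair genes lay above 0 in 12 of 17 cases in controls and 12 of 17 in exposed seedlings, and 0 passed limma. These are not all the same genes: 9 of the 17 lay on the same side in both, beside 64.5% of all genes. The part of root hair genes in the iron results was not tested.

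**Figure D4:**
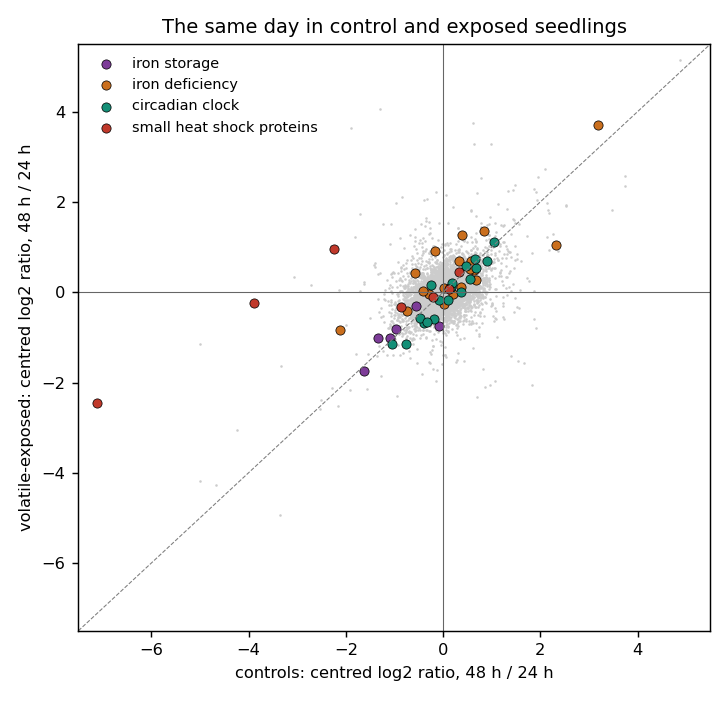
Each point is 1 gene, with the centred log2 ratio of 48 h to 24 h in controls on the horizontal axis and in volatile-exposed seedlings on the vertical axis; coloured points are members of 4 lists and the dashed line marks equal ratios. All 6 iron storage genes lie at the lower left, 16 of 18 clock genes have both ratios on the same side, and 3 small heat shock genes lie far to the left, 1 of them above 0 in exposed seedlings.

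**Figure D5:**
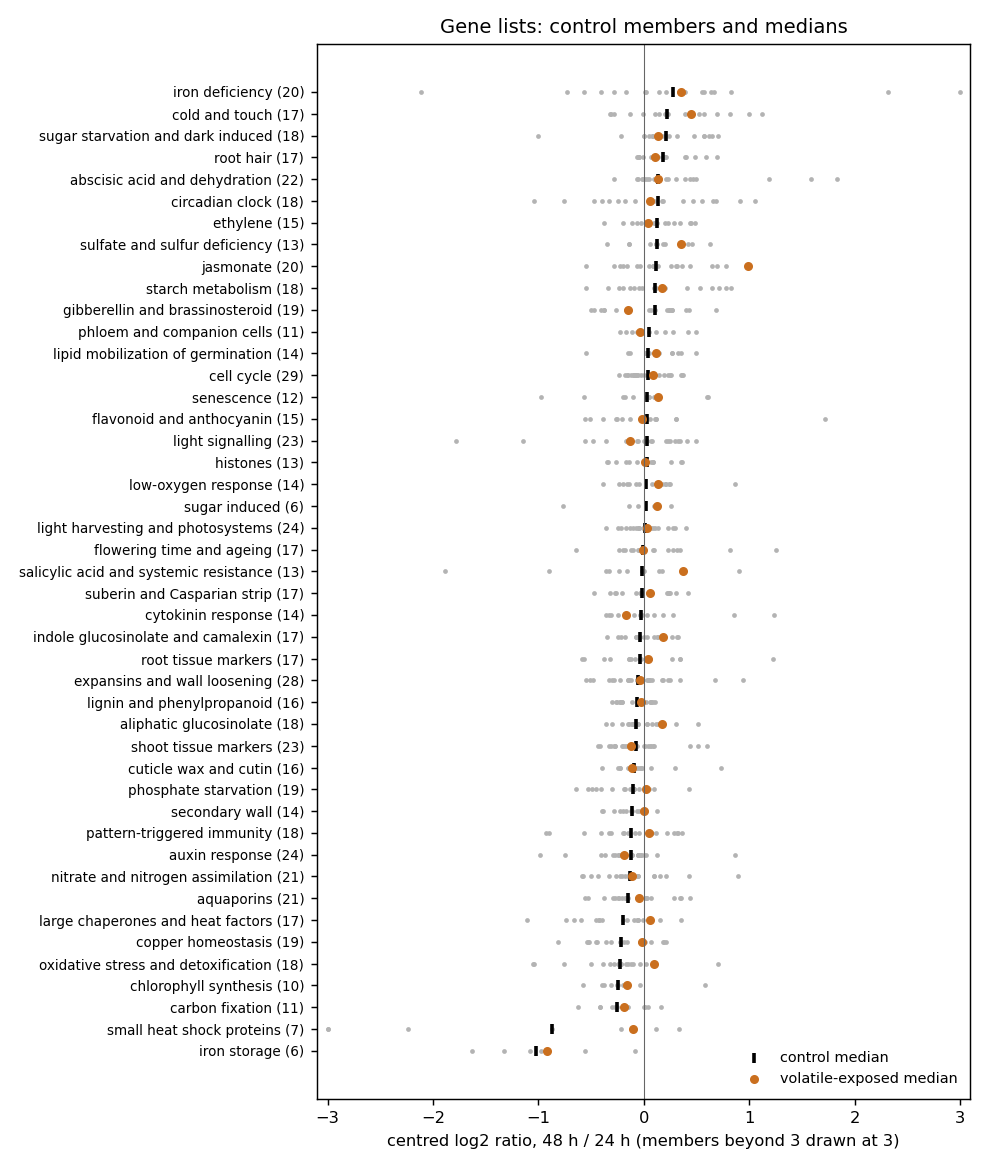
Centred log2 ratio of 48 h to 24 h for the members of each list with at least 5 measured members, with grey points for control members, a black bar for the control median and an orange point for the exposed median; the number of members is in brackets, and members beyond 3 are drawn at 3. Iron storage and small heat shock proteins have the lowest control medians, -1.03 and -0.87, and the jasmonate list has the widest distance between the control and exposed medians, 0.11 and 0.99.

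At one of the 2 times 41 genes were listed at 0 in controls, 23 at 24 h and 18 at 48 h, and no fold is given for them. AT3G08520, a ribosomal protein gene, had a listed 0 at 24 h and 2521 FPKM at 48 h in controls, with 4754 and 1184 FPKM in exposed seedlings, and a 0 of this kind can be a failed estimate. Among organelle-encoded genes 13 had both values above 0, with a median of 0.05, and 6 were listed at 0 at a time. Gene models under 500 bases made up 1.02% of all genes compared, but 19.5% of those at least 2-fold higher and 12.9% of those at least 2-fold lower. The genes nearest the 2-fold line were AT4G30845, at -1.003, DIN9, at -1.003, and GH9B5, at 1.004, just inside it, and AT1G11915, at 0.998, AT1G56300, at 0.999, and AO, at -0.999, just outside.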

How the data were processed

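Whole-seedling RNA was measured by RNA sequencing in 12 libraries, 6 groups of 2. Trimmomatic 3.6, TopHat and the build TAIR10 are named in the submitters' processing notes. Per the file headers, the tables are laid out as Cuffdiff writes its gene tests, though no source used here names that tool. The authors deposited FPKM, a single value for each gene and group. A table's time is known only from its name. The authors' test statistic, a deposited score, and their deposited p-values compare volatile with control. Only the statistic was used, as an implied error: the log2 ratio of exposed to control divided by it, a reading that no header states. The deposited fold change was not used.

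Rows naming exactly 1 gene were joined; rows without a gene name (1.29% at 24 h and 1.28% at 48 h) and 1054 and 1018 merging several genes were left out. A gene with more than 1 row was taken from a row with a completed test where there was one, and from the row of highest control level among equals. Starts in the tables count from 0 and are printed from 1. limma 3.58.1 in R 4.3.3 fitted centred log2(FPKM + 0.5) with a trended prior; its median prior degrees of freedom were 4.52. Scripts ran in Python 3.11.15 and were tested on simulated data. Members, gene lists and tests were chosen with earlier results of these data known. The 46 lists hold 909 loci, of which 889 were kept because the annotation bears out the listed symbol.

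Named genes are the 12 highest and 12 lowest control ratios above 5 FPKM, the 4 largest such ratios in each list with at least 3 measured members and a median at least 0.25 from 0 or at least 2 members past 2-fold, the 6 smallest limma p-values in each direction, and a panel of 19 genes. Other genes named as list members, as examples of the limma calls or for their upstream sequence were chosen after their values were seen. Alternatives tried are scaling, pseudocount, filter, threshold, test status, prior, added groups and gene model.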

Additional observations from a re-analysis of the deposited data

Results flagged for a closer look

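In 3 genes of at least 5 FPKM the controls moved at least 2-fold one way from 24 h to 48 h and the exposed seedlings at least 2-fold the other way, with 1 deposited value per group; the difference between the arms was not tested. AT1G66100, a thionin gene, stood at 27.0 and 12.9 FPKM in controls and at 8.30 and 18.17 FPKM in exposed seedlings, so its control log2 ratio minus its exposed ratio was -2.18. RL1, a RAD-like gene with a model of 401 bases, stood at 11.9 and 3.499 FPKM in controls and at 4.18 and 10.1 FPKM in exposed seedlings, a difference of -3.02. AT3G01940, with a model of 223 bases, stood at 11.6 and 42.1 FPKM in controls and at 24.2 and 6.03 FPKM in exposed seedlings, a difference of 3.88. The implied errors of the control ratios were 0.55, 1.78 and 1.47, in the same order. These genes were chosen after their values were seen.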

How the results depend on the processing

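The count of genes at least 2-fold higher in controls, 133, was 84 with a pseudocount of 1, 55 with a mean of at least 5 FPKM, 521 with no filter and 539 at 1.5-fold. The count of lower genes, 101, was 40, 439 and 427 with the last 3 of these settings. With a mean of at least 5 FPKM, 92.2% of higher and 89.5% of lower genes lay on the same side in exposed seedlings, and with a pseudocount of 1 76.5% of lower genes did. The limma count of 146 genes (79 higher, 67 lower) was 360 (204 and 156) without a pseudocount, 327 (171 and 156) with a mean of at least 5 FPKM, 22 (12 and 10) without a trend in the prior, and, in settings chosen after seeing the data, 86 (50 and 36) with gene models of the same bounds and 243 (133 and 110) with models of at least 500 bases. Of the 146 genes, 138, 124, 21, 86 and 134 were also called in these settings, in that order, and 105 with the 3 h groups added. FER1 had adjusted p-values from 0.00065 to 0.029 over all limma settings, CCA1 from 0.0031 to 0.067, FKF1 from 0.0060 to 0.067 and FER3 from 0.0034 to 0.067. The test with implied errors called 2 genes in place of 1 with no centring, with quantile normalization and with a mean of at least 5 FPKM. The median of small heat shock proteins, -0.87, was -0.20 with a mean of at least 5 FPKM, and their mean was -1.98. FKF1 and CCA1 fell short of 2-fold in controls with a pseudocount of 1, at 0.92 and -0.96, and VTL2 passed it with quantile normalization, at -1.01. For these settings the cause was not tested. The other values, 112 for the counts, shares and medians and 337 for single genes, were counted as unchanged. Counts stayed within 1.5 times and shares within the confidence interval of the main share. Medians stayed within 0.32, the interquartile range of control ratios, but could shrink or change sign. Carbon fixation went from -0.26 to -0.01 with quantile normalization and iron deficiency from 0.28 to 0.09 with a mean of at least 5 FPKM. Light signalling went from 0.03 to -0.08 as a mean of members. Single genes kept their side of 2-fold, and those short of it stayed within 0.32. No paired analysis was possible because the tables hold no values per library, and leaving out each library was not run for the same reason. Depth is unknown, so low values carry an error that cannot be given.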
